A study of Rattus norvegicus with 3 samples.

Results

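The cadherins and protocadherins are cell-surface adhesion molecules, and the values below are those of 33 of their genes in rat brainstem. The members are every gene whose only symbol in the platform's probe table is Cdh followed by a digit or begins with Pcdh, leaving out the endothelial Cdh5. They are 33 of 14217 named genes, 16 of them Cdh and 17 Pcdh genes, measured by 46 probe sets. Of the 21 members with usable signal, 0 differed by 1.5-fold or more between any 2 of the 3 arrays, where 1.55% of all genes did so for TBI minus Sham, 1.21% for Hand Acu minus TBI and 1.89% for Hand Acu minus Sham. At such shares a count of 0 among 21 is near the background.

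The study has 3 arrays, labelled Hand Acu (hand acupuncture), TBI (traumatic brain injury) and Sham, all taken 1 h after modelling. Each is read as 1 pool of RNA from 5 rats, since the series' design text says that the samples were mixed. The labels used here do not say whether the Hand Acu rats were also injured, where needles were placed, or which strain, sex and age the rats had. With 1 array a group there was no replicate, so no test was run, no p-value is given and no difference has an error of its own.

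Cadherins bind one another across cell contacts through extracellular repeats held rigid by calcium. The tails of classical cadherins bind catenins, which link them to actin, and in the nervous system these junctions hold synapses and neuroepithelium together. Protocadherins form a larger family that adheres more weakly. Genes of the clustered alpha, beta and gamma protocadherins lie side by side, and each neuron switches on a few of them by choosing among their promoters, which gives its surface an identity by which its own branches recognise one another.

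Levels are log2 signals of the MAS5 method, in which a step of 1 is a 2-fold change. Each gene takes the value of its probe set with the highest mean signal, and signals of different genes are not compared as amounts because probe sets bind with different strength. A floor was set at a mean log2 signal of 7.44, the median of all non-control probe sets. It was reached by 21 of the 33 members and by 9241 of all 14217 named genes. Values near background are erratic: the SD of TBI minus Sham over probe sets was 1.76 in the lowest decile of signal and 0.14 in the highest. Beta-actin, whose 3′ excess grows as RNA degrades, read 6.69, 6.37 and 5.58 times more at its 3′ than at its 5′ end on the Hand Acu, TBI and Sham arrays. For Gapdh the same ratios were 1.280, 1.203 and 1.2497, which put the arrays in another order, and the part of either in the results was not tested.

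Of the 9 clustered members, 7 were beta and 2 alpha genes. For the beta genes, 5 had an entry in the RefSeq promoter table of the assembly GRCr8, and their promoters are shown because they carry a sequence that the family shares and that the membership rule did not use. The window runs from 250 bases before to 50 bases after the annotated start. The longest run of bases common to all 5 windows was GGTGGCGCTGCAG, given in capitals below; as background, clustered protocadherin promoters hold a conserved element with the core CGCT, which is bound by CTCF.
Pcdhb9: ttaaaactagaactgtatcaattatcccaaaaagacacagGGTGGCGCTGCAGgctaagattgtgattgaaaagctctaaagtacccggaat
Pcdhb19: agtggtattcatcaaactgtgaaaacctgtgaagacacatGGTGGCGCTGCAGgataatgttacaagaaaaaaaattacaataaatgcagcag
Pcdhb12: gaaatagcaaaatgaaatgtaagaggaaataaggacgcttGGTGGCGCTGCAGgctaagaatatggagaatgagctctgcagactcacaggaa
Pcdhb6: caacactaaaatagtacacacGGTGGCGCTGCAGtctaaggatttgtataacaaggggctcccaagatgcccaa
Pcdhb21: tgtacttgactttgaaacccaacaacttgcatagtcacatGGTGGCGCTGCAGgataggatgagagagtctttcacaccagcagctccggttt

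All 5 stretches lie on the plus strand of GRCr8, upstream of the start. They are chr18:29379218-29379309 for Pcdhb9, chr18:29478734-29478826 for Pcdhb19, chr18:29413618-29413710 for Pcdhb12, chr18:29320141-29320214 for Pcdhb6 and chr18:29492119-29492211 for Pcdhb21. The run began 52 bases before the annotated start in Pcdhb9, 60 in Pcdhb21, 74 in Pcdhb19, 98 in Pcdhb12 and 229 in Pcdhb6. Searched on both strands, these 13 letters were in 13 of 33469 promoters (0.0388%), of which 12 were Pcdhb genes and 1 was Dnajb2. The 5 members were used to define the run, so the count that does not depend on them is that of the other Pcdhb genes, 7 of 14. It was in 0 of 15 Pcdhg promoters and in 0 of the 16 promoters of members outside the clusters. The shorter GGCGCT, contained in the run and searched likewise on both strands, was in 10 of the 14 other Pcdhb, 5 of 15 Pcdhg and 5 of the 16 promoters of members outside the clusters, against 14.5% of all promoters. A shared run of letters is a description of these windows and not a binding site measured here.

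Of the 9 clustered members 3 passed the floor. Pcdhb9 had log2 signals of 8.68 in Hand Acu, 8.78 in TBI and 8.78 in Sham. Pcdhb19 had 8.80, 8.68 and 8.63 on the same arrays in the same order. Neither Pcdhb9 nor Pcdhb19, both isoform genes with a single large exon, differed by more than 0.17 between any 2 arrays. Pcdha13, an alpha isoform, had 7.45 in Hand Acu, 7.56 in TBI and 7.94 in Sham, so that Sham stood above the other arrays. Its Hand Acu minus Sham difference of −0.49 (1.40-fold lower) was the largest of any member above the floor in any comparison. The identifiers of Pcdha13 and Pcdha12 had no entry in the RefSeq table used here, whereas those of the other 31 members had one.

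Alpha and gamma isoforms share their last exons as background, and 4 probe sets were annotated to 13 to 15 alpha or gamma genes at once and so fell outside the membership rule. An alpha probe set of 15 genes read 11.40, 11.29 and 11.30 on the Hand Acu, TBI and Sham arrays, and another read 11.27, 11.17 and 11.07. A gamma probe set of 13 genes read 12.24, 12.17 and 12.21. Differences of these 3 between arrays lay between −0.04 and 0.20. Both alpha probe sets were higher in Hand Acu than in Sham, by 0.10 and 0.20. The single Pcdha13 probe set, which is much closer to the floor, was at −0.49 there. The fourth, a gamma probe set of 14 genes, was below the floor with 6.61, 7.24 and 7.34. No gamma gene had a probe set of its own in the table. Related isoforms may hybridise to one another's probes, which was not tested, so single clustered genes are uncertain.

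**Figure D1:**
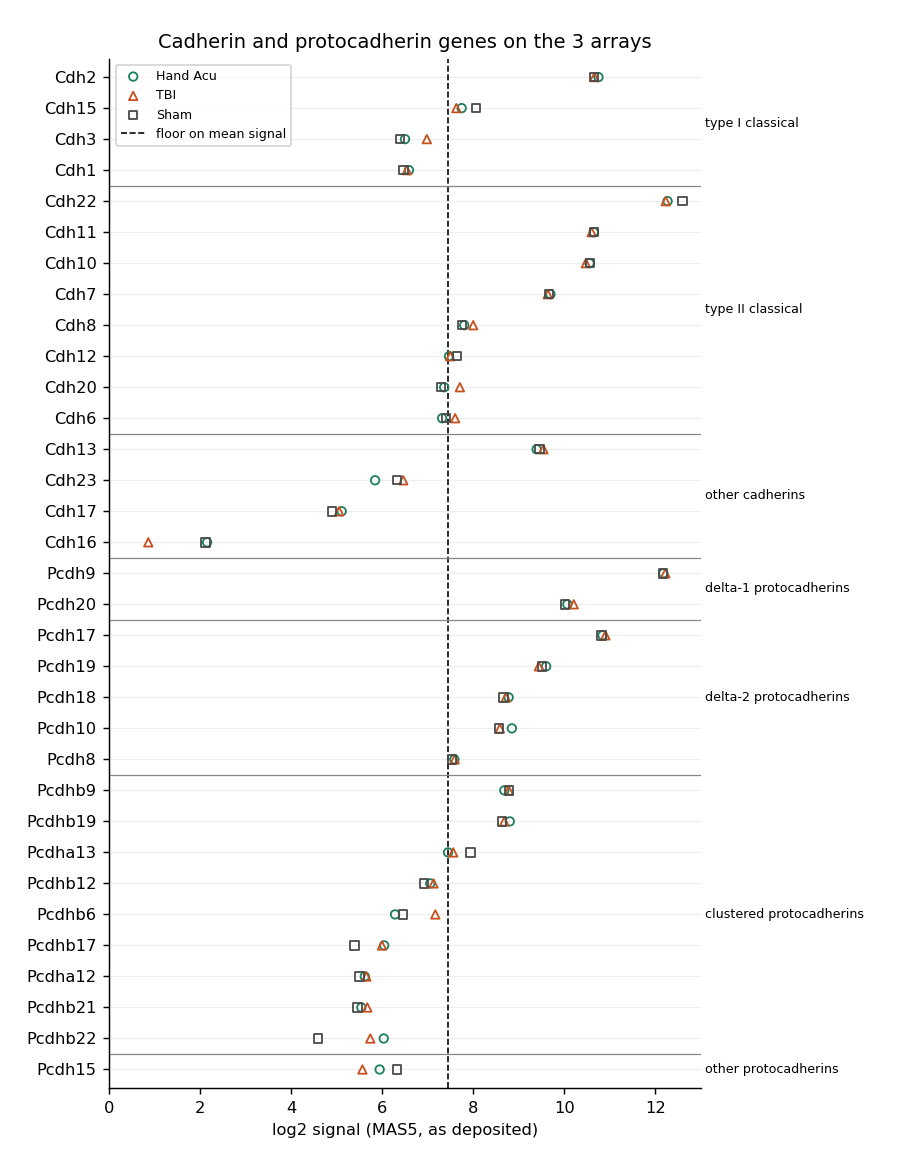
Log2 signal (x axis) of the 33 genes (y axis), grouped by subfamily, with 1 symbol for each of the Hand Acu, TBI and Sham arrays and the floor of 7.44 as a dashed line. Of the 33 genes 21 have a mean at or above the floor, and for most of these the 3 symbols lie close together; scatter is wider below the floor.

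The type I classical cadherins were N-cadherin and M-cadherin above the floor, with E-cadherin and P-cadherin below it. Cdh2, the gene of N-cadherin, the main cadherin of neural tissue, had log2 signals of 10.75 in Hand Acu, 10.66 in TBI and 10.66 in Sham. Its second probe set above the floor gave differences within 0.05 of the first in all 3 comparisons. Cdh2 was thus level on the arrays, with TBI minus Sham at 0.01 and Hand Acu minus TBI at 0.09. Cdh15, the gene of M-cadherin, known from muscle and from granule cells of the cerebellum, had 7.75 in Hand Acu, 7.63 in TBI and 8.07 in Sham. The Sham array was the highest of the 3, and TBI minus Sham was −0.44 (1.35-fold lower), the lowest value above the floor in that comparison. Cdh1, the gene of E-cadherin of epithelia, had 6.59, 6.54 and 6.47 on the Hand Acu, TBI and Sham arrays, and Cdh3, the gene of P-cadherin, had 6.50, 6.98 and 6.39; both are below the floor.

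All 8 type II classical cadherins, a subfamily that marks particular neuron groups and circuits, passed the floor. Cdh22, the cadherin of pituitary and brain, had log2 signals of 12.27 in Hand Acu, 12.23 in TBI and 12.60 in Sham. Sham was again the highest, and TBI minus Sham was −0.37 (1.29-fold lower) while Hand Acu minus TBI was 0.04. Among the 646 genes with a mean log2 signal of 12 or more, a bound chosen with these values known, 4 (0.619%) were lower in TBI than in Sham by at least 0.32, and Cdh22 was 1 of them. Its second probe set, with a mean of 8.26, gave −0.15 for TBI minus Sham and 0.12 for Hand Acu minus Sham, where the brighter gave −0.33. The mean of both probe sets was −0.26 for TBI minus Sham and −0.11 for Hand Acu minus Sham. The size of the Cdh22 difference, and for Hand Acu minus Sham also its sign, thus depended on the probe set.

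Cdh11, a cadherin of mesenchyme and brain, had 10.65, 10.60 and 10.65 on the Hand Acu, TBI and Sham arrays. Cdh10, a brain cadherin, had 10.56, 10.48 and 10.57 on these arrays, and Cdh7 had 9.70, 9.64 and 9.66. On the brightest probe sets of these 3 genes no 2 arrays were more than 0.10 apart, and TBI was the lowest array in each. A second Cdh11 probe set above the floor, with a mean of 8.30, had Sham lowest. It gave 0.18 for TBI minus Sham and 0.24 for Hand Acu minus Sham. Cdh12, also called brain cadherin, had 7.47, 7.50 and 7.64, with Sham highest.

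The other 3 type II genes lay near the floor and were highest on the TBI array. Cdh20 and Cdh6 were below the floor of 7.44 on the Hand Acu and Sham arrays and passed it only through TBI. That TBI was their highest array is thus tied to the filter, and nothing is read from it. Cdh20 had 7.36, 7.71 and 7.29 on the Hand Acu, TBI and Sham arrays. It was 0.41 higher in TBI than in Sham (1.33-fold) and −0.34 for Hand Acu minus TBI, the highest and the lowest value above the floor in these 2 comparisons. Cdh8, known from sensory and cortical circuits, had 7.80, 7.9998 and 7.76, and Cdh6, known from kidney and the developing brain, had 7.32, 7.60 and 7.40. These 3 genes have 1 probe set each, so no second reading is at hand. Cdh6 and Cdh20, with means of 7.44 and 7.45, were the members just above the floor, and Pcdhb12 and Pcdhb6, with 7.03 and 6.63, the nearest below it.

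Of the 4 cadherins outside the classical types, Cdh13 passed the floor. Cdh13 encodes T-cadherin, which is anchored by a lipid and has no tail for catenins, and its brightest probe set read 9.39, 9.54 and 9.46 on the Hand Acu, TBI and Sham arrays. All 3 of its probe sets were higher in TBI than in Sham, by 0.09, 0.38 and 0.15, and all 3 were lower in Hand Acu than in TBI, by 0.01 to 0.44. For Hand Acu minus Sham they were −0.06, 0.37 and −0.29, so that readings of the same gene lay 0.66 apart. Cdh23, which with Pcdh15 forms the tip links of hair cells in the inner ear, had 5.84, 6.46 and 6.32 and was below the floor, as was Pcdh15 with 5.94, 5.57 and 6.32. The kidney cadherin Cdh16 and the liver and intestine cadherin Cdh17 were also below the floor, at no more than 2.15 and 5.11 on any array.

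Both delta-1 protocadherins, Pcdh9 and Pcdh20, were a little higher in TBI than in Sham. Pcdh9 had log2 signals of 12.18 in Hand Acu, 12.22 in TBI and 12.17 in Sham. Pcdh20 had 10.07, 10.21 and 10.01 on these arrays. For both genes the second probe set had the same sign in this comparison, at 0.08 for Pcdh9 and 0.14 for Pcdh20 against 0.05 and 0.19 for the brightest. Both were lower in Hand Acu than in TBI, by 0.04 and 0.14.

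All 5 delta-2 protocadherins passed the floor. This subfamily recruits actin regulators of the WAVE complex through its tail. Pcdh17, known from synapse assembly in basal ganglia circuits, had 10.84 in Hand Acu, 10.91 in TBI and 10.82 in Sham. Pcdh19, an X-linked gene mutated in a form of human epilepsy, had 9.60, 9.44 and 9.51. Pcdh18 had 8.78, 8.72 and 8.67. Pcdh10, known from axon growth and the removal of synapses, was highest on the Hand Acu array, as Pcdh19 and Pcdh18 were, with 8.85 against 8.59 on the TBI array and 8.57 on the Sham array. Its Hand Acu minus TBI difference of 0.26 (1.20-fold) was the highest above the floor, as was its Hand Acu minus Sham difference of 0.28 (1.21-fold). Pcdh8, also called arcadlin, which is induced by neuronal activity in hippocampus and takes N-cadherin off the synaptic membrane, had 7.59, 7.59 and 7.53. All 5 were higher in Hand Acu than in Sham, by 0.02 to 0.28, where 51.0% of all genes above the floor were higher. The 3 probe sets of Pcdh17 did not share a sign in that comparison.

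The first comparison, TBI against Sham, is that of the injury model with its control. Of the 21 members above the floor 0 were at least 1.5-fold apart, against 1.55% of all 9241 genes above the floor. At a lower threshold, a log2 difference of at least 0.32, 1 member was higher (Cdh20), against 5.05% of all genes, and 3 were lower (Cdh15, Pcdha13 and Cdh22), also against 5.05%. Cdh20 passed the floor only through its TBI value, so its place here is tied to the filter. The median log2 difference was 0.02 over the members and 0.004 over all genes, with 13 members higher and 8 lower, against 51.0% of all genes higher. The SD was 0.20 over the members and 0.20 over all genes, so the spread of the family was that of the array as a whole. The 13 members within 0.1 of 0, where 46.3% of all genes lay, included Cdh2, Cdh11, Cdh10, Pcdh9 and Pcdh17.

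Hand Acu against TBI asks how the acupuncture array differs from the injury array. Again 0 of 21 members were 1.5-fold apart, against 1.21% of all genes. At the threshold of 0.32, 1 was lower (Cdh20, which passed the floor only through TBI), against 4.12% of all genes, and 0 were higher, against 4.04%. The median was −0.01 over the members and −0.002 over all genes, with 10 higher and 11 lower, against 49.3% of all genes higher. The SD over the members was 0.15, against 0.19 over all genes.

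In Hand Acu against Sham 0 of 21 members were 1.5-fold apart, against 1.89% of all genes. At the threshold of 0.32, 2 were lower (Pcdha13 and, on its brightest probe set only, Cdh22), against 5.46% of all genes, and 0 were higher, against 5.50%. Cdh15, at −0.32 when rounded, lay just short of that threshold. The median was 0.02 over the members and 0.004 over all genes, with 12 higher and 9 lower, against 51.0% of all genes higher. The SD was 0.18 over the members and 0.21 over all genes. The 3 comparisons share arrays, so their values are not independent of one another. The Sham value enters both comparisons with Sham, and Cdh15, Pcdha13 and the brightest probe set of Cdh22 were highest on Sham. With 1 array a group, a high reading on Sham and lower expression in the other groups cannot be told apart.

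**Figure D2:**
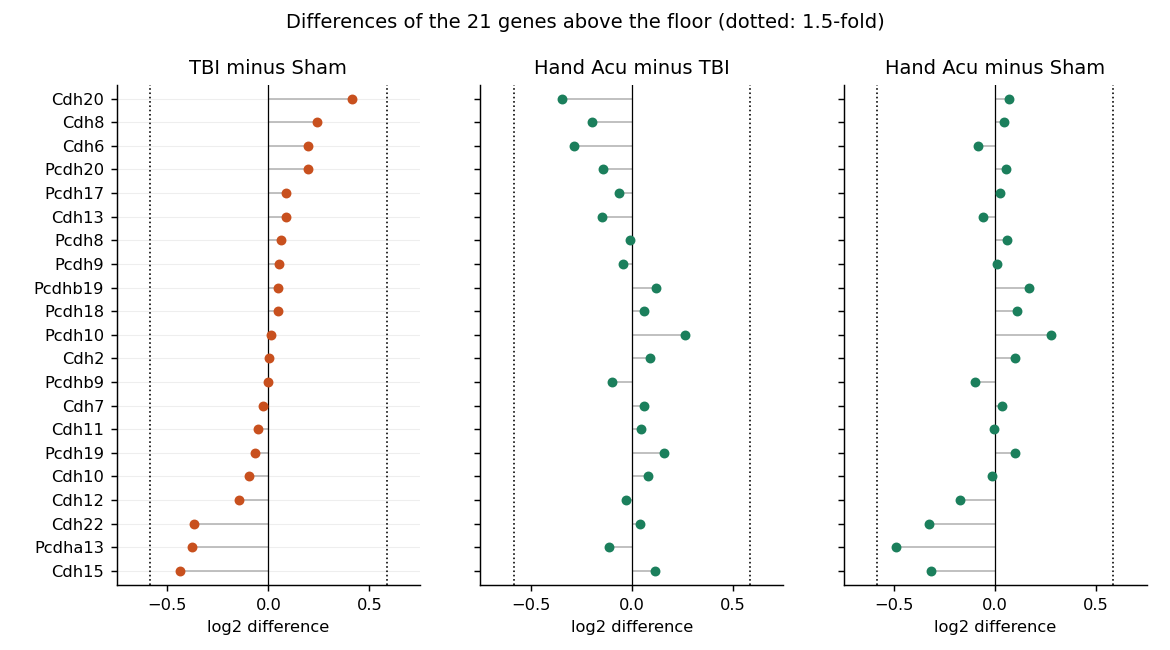
Log2 differences (x axis) of the 21 genes above the floor (y axis, ordered by TBI minus Sham) in the 3 comparisons, with 1.5-fold as dotted lines. No gene reaches the dotted lines. Cdh20 is highest and Cdh15, Pcdha13 and Cdh22 are lowest for TBI minus Sham. Cdh20 and Cdh6 passed the floor only through their TBI value.

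Each member was also read over its range on the 3 arrays. The range had a median of 0.16 over the 21 members, from 0.05 for Cdh11 to 0.49 for Pcdha13, and a median of 0.18 over all genes above the floor. It was under 0.2 for 14 of the 21 members (66.7%) and for 56.9% of all genes. Hand Acu was the highest array for 6 members, TBI for 9 and Sham for 6, against 32.3%, 33.4% and 34.3% of all genes above the floor. Those highest on TBI include Cdh20 and Cdh6, which passed the floor only through that array. Hand Acu was the lowest for 5, TBI for 6 and Sham for 10, against 32.0%, 31.7% and 36.3% of all genes.

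Size of difference went with signal. For the 11 members under a log2 signal of 9, TBI minus Sham had an SD of 0.25, against 0.26 over the 3398 genes in that range. For the 10 members at 9 or above the SD was 0.15, against 0.17 over 5843 genes, and without regard to sign Cdh22 had the largest value. Members with the largest differences, other than Cdh22, were thus dim ones. Of the genes under 9, 18.04% were at least 0.32 apart in either direction for TBI minus Sham, 15.3% for Hand Acu minus TBI and 19.6% for Hand Acu minus Sham, against 5.49%, 4.02% and 5.96% of the brighter genes.

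**Figure D3:**
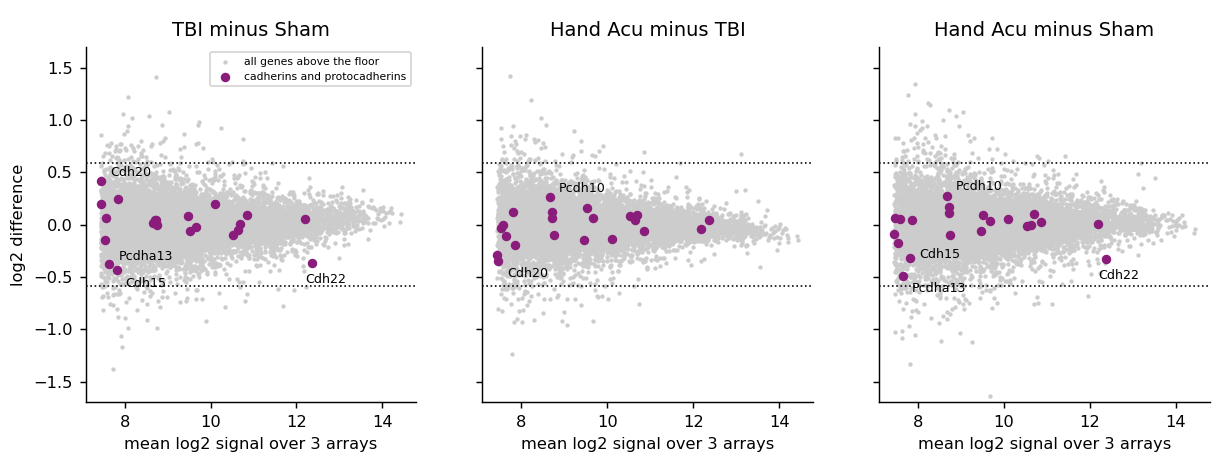
Log2 difference (y axis) against mean log2 signal over the 3 arrays (x axis) for all 9241 genes above the floor (grey) and the 21 cadherins and protocadherins (purple), with 1.5-fold as dotted lines. The family lies inside the cloud of all genes, which narrows as signal grows, and Cdh22 lies at its lower edge at high signal in both comparisons with Sham.

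The 7 members Cdh2, Cdh11, Cdh13, Cdh22, Pcdh9, Pcdh17 and Pcdh20 had 2 or 3 probe sets above the floor, which allows readings of the same gene to be set side by side. Of the 9 further probe sets, 6 had the sign of the brightest for TBI minus Sham, 7 for Hand Acu minus TBI and 4 for Hand Acu minus Sham. Readings of the same gene lay up to 0.29 apart for TBI minus Sham, 0.43 for Hand Acu minus TBI and 0.66 for Hand Acu minus Sham, each time in Cdh13. The spread was smallest in Cdh2, Pcdh9 and Pcdh20, at no more than 0.09 in any comparison.

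**Figure D4:**
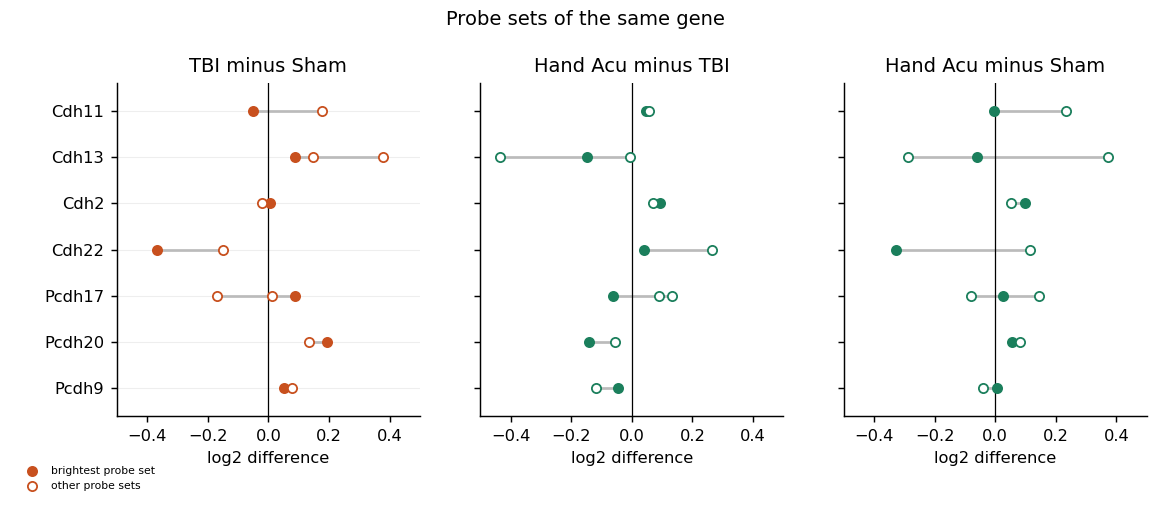
Log2 differences (x axis) for each probe set above the floor of the 7 genes with several (y axis), with the brightest probe set filled and the others open. Points of Cdh2, Pcdh9 and Pcdh20 nearly coincide, whereas those of Cdh13 and Cdh22 spread widely.

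The 12 members below the floor were Cdh1, Cdh3, Cdh16, Cdh17, Cdh23, Pcdh15, Pcdha12 and the beta genes Pcdhb6, Pcdhb12, Pcdhb17, Pcdhb21 and Pcdhb22, with mean log2 signals of 1.71 to 7.03. Their TBI minus Sham differences ran from −1.252 (Cdh16) to 1.15 (Pcdhb22) and 6 were 1.5-fold apart. In Hand Acu minus TBI 3 were, from −0.89 (Pcdhb6) to 1.29 (Cdh16), and in Hand Acu minus Sham 2 were, from −0.48 (Cdh23) to 1.44 (Pcdhb22). Pcdhb22 had 6.03 in Hand Acu, 5.74 in TBI and 4.59 in Sham, and Pcdhb6 had 6.28, 7.17 and 6.45. With no floor 13.6% of all genes were 1.5-fold apart for TBI minus Sham. The shares were 13.2% for Hand Acu minus TBI and 14.3% for Hand Acu minus Sham. These shares include the steadier genes above the floor, and none is given for genes below it alone, so nothing is read from the values of these 12 members.

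Markers of the cerebellum, which lies against the brainstem, were lower on the Hand Acu and TBI arrays than on the Sham array, as were Cdh15, Cdh22 and Pcdha13. Of 6 granule cell markers listed, 5 had a named probe set and all 5 were above the floor; the log2 of their summed signal was 13.30 in Hand Acu, 13.29 in TBI and 13.90 in Sham. All 5 were lower in TBI than in Sham, with a median of −0.62, among them Gabra6, a GABA-A receptor subunit, at −0.62. For 5 of 6 Purkinje cell markers above the floor the sums were 13.66, 13.72 and 14.03 and the median −0.36, with all 5 lower. These 3 members are shown beside the markers because they were the lowest against Sham, and the second probe set of Cdh22 was 0.12 higher in Hand Acu than in Sham. Whether cerebellar tissue had a part in the values of Cdh15, Cdh22 and Pcdha13 was not tested. In bulk tissue, fewer cells of a type and less RNA per cell cannot be told apart.

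**Figure D5:**
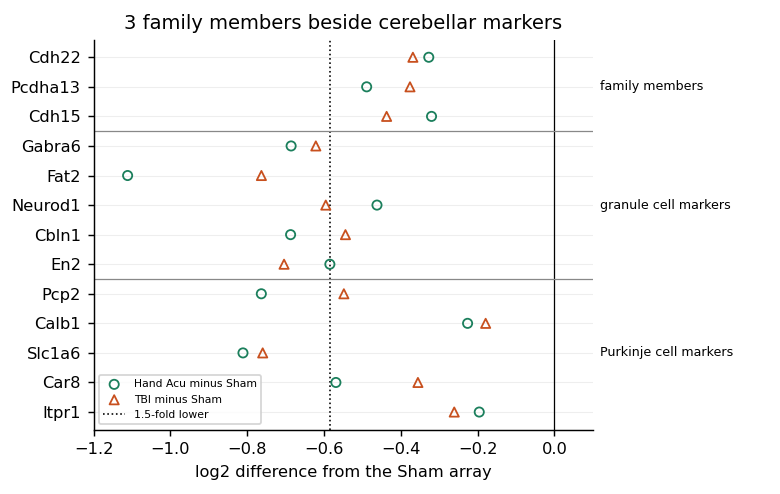
Log2 difference from the Sham array (x axis) for Cdh22, Pcdha13, Cdh15 and 10 cerebellar markers (y axis), with circles for Hand Acu minus Sham and triangles for TBI minus Sham. All 13 genes are below 0 in both comparisons, with the 3 family members between −0.49 and −0.32. These 3 were chosen because they are low against Sham, so their sign here was fixed by that choice. Cdh22 is shown by its brightest probe set, and its second was 0.12 higher in Hand Acu than in Sham.

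Markers of other cell types, leaving aside the hindbrain and forebrain lists given last, had medians closer to 0 for TBI minus Sham than those of the cerebellum. The medians were 0.04 for 6 neuron, 0.04 for 6 myelin, 0.03 for 6 astrocyte and 0.04 for 6 meningeal and fibroblast markers above the floor. They were −0.14 for 5 endothelial and −0.24 for 3 pericyte and smooth muscle markers, all lower. They were 0.09 for 5 microglia, 0.09 for 2 oligodendrocyte precursor and 0.13 for 5 choroid plexus and ependyma markers. For Hand Acu minus Sham the medians were −0.69 for granule cell and −0.57 for Purkinje cell markers. Choroid plexus and ependyma markers had −0.42, with 4 of 5 lower. Pericyte and smooth muscle markers had −0.31, with 2 of 3 lower. The 4 forebrain markers above the floor had 0.49, with 3 of 4 higher, and the 2 hindbrain markers had 0.56, with 2 of 2 higher. The other cell type lists ran from −0.05 for endothelial to 0.08 for neuron markers. The brainstem label was set beside 6 hindbrain markers, of which 3 had a named probe set and 2, Hoxb3 and Hoxa5, were above the floor. The other, Slc6a5, was below it, with 2.11, 3.02 and 3.14 on the Hand Acu, TBI and Sham arrays. The list was thus mixed and the label was checked only in part. Hoxa5, which patterns the hindbrain, was 1.22 higher in TBI than in Sham and Hoxb3 was 0.18 higher, with a median of 0.70. Of 6 forebrain markers 4 were also above the floor, with a median of 0.40 for TBI minus Sham. They did not share a sign: Ppp1r1b was at 0.60, Bcl11b at 0.46 and Drd1 at 0.34, but Neurod2 at −0.56.

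The partners of cadherins were read from 5 lists with 49 genes above the floor. Of 12 catenins and junction partners 0 were 1.5-fold apart in any comparison. Ctnnb1, the gene of beta-catenin, had 13.45, 13.52 and 13.39 on the Hand Acu, TBI and Sham arrays. Ctnna1, the alpha-catenin that links it to actin, had 11.61, 11.62 and 11.80, and Jup, the gene of plakoglobin, had 9.39, 9.38 and 9.65. For TBI minus Sham 8 of the 12 were lower, with a median of −0.04, where 49.0% of all genes were lower and 1.55% were 1.5-fold apart. The shares of all genes 1.5-fold apart were 1.21% for Hand Acu minus TBI and 1.89% for Hand Acu minus Sham. Nothing particular to these lists is read from such counts. Nectin3, an adhesion molecule of the same junctions, was 0.35 higher in TBI than in Sham and −0.41 for Hand Acu minus TBI.

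Adam10, the protease that sheds N-cadherin, had 9.32 in Hand Acu, 9.12 in TBI and 9.48 in Sham. Ncstn, the gene of the gamma-secretase subunit nicastrin, had 8.52, 8.55 and 8.94. Of the 7 shedding and cleavage genes above the floor, 4 were higher and 3 lower for TBI minus Sham, with a median of 0.01. For Hand Acu minus Sham 2 were higher and 5 lower, with a median of −0.13. In these comparisons 0 were 1.5-fold apart, against 1.55% and 1.89% of all genes. Of 10 genes of the WAVE complex and protocadherin signalling 9 were higher in Hand Acu than in Sham, with a median of 0.11. The largest was Wasf1, a WAVE subunit, at 0.27. For TBI minus Sham 6 of these 10 were higher and 4 lower, with a median of 0.03. In either comparison 0 of the 10 were 1.5-fold apart. Over all genes 51.0% were higher in Hand Acu than in Sham and 1.89% were 1.5-fold apart.

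Of 10 genes that act in the choice of clustered protocadherin promoters 8 were lower in TBI than in Sham, with a median of −0.09, against 49.0% of all genes. Ctcf, whose protein binds the conserved promoter element, had 10.10 in Hand Acu, 10.10 in TBI and 10.29 in Sham. Setdb1, a histone methyltransferase, was lower by 0.32 and Nipbl, which loads cohesin, by 0.29, while the cohesin subunit gene Rad21 was 0.07 higher. None of the 10 was 1.5-fold apart in any comparison. Over all genes the shares were 1.55% for TBI minus Sham, 1.21% for Hand Acu minus TBI and 1.89% for Hand Acu minus Sham. At such shares a count of 0 among 10 is near the background.

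The 10 other genes of the cadherin superfamily above the floor held the larger differences. Fat2, a giant cadherin of granule cells that also serves as one of the cerebellar markers, had 8.03 in Hand Acu, 8.38 in TBI and 9.15 in Sham, which is −0.76 for TBI minus Sham and −1.11 for Hand Acu minus Sham. Clstn3, a synaptic calsyntenin, had 8.40, 9.32 and 9.13 and was 0.92 lower in Hand Acu than in TBI, a log2 difference of −0.92. The remaining 8 of these 10 were less than 1.5-fold apart in every comparison, with Cdhr1, a cadherin of photoreceptors, 0.54 higher in Hand Acu than in TBI, and Celsr2, a planar polarity cadherin, 0.31 higher in TBI than in Sham.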

How the data were processed

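Brainstem RNA of 3 groups was measured on 1 Affymetrix array each. Per the labels' protocols, Trizol served for extraction and 6 µg of RNA went into biotin-labelled cRNA. The submitters' processing notes name MAS5; its version is not given in the sources used here. The authors deposited log2 signals. On the linear scale all 3 arrays had a mean of 500.0 once 2% was trimmed from either end, from which the log base and the authors' scaling were inferred. Of 31099 probe sets, 57 were controls, 20826 had 1 symbol in the platform annotation of 2016, 436 had several and 9780 had none there.

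From these, the brightest probe set of each gene was taken, a floor of 7.44 was set on the mean log2 signal, and differences of 2 arrays were computed as deposited, with counts at 1.5-fold and at a log2 difference of 0.32. Depth has no meaning here; the number of arrays limits the precision. Members and lists were chosen with earlier results of these data known. Named genes were the members above the floor at either end of each comparison, the brightest, type I members and those with several probe sets, which together took in all 21. Alternatives were quantile normalization, centring, another floor or none, an offset of 50, the mean of probe sets and other folds. Promoter sequences are RefSeq's (GRCr8), with 21 of 33 members matched by gene identifier. The software was numpy 2.4.6, pandas 2.3.3, matplotlib 3.10.9 and Python 3.11.15, and the scripts were tested on simulated data.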

Additional observations from a re-analysis of the deposited data

How the results depend on the processing

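The count of members 1.5-fold apart was 0 in all 3 comparisons under quantile normalization, centring on the median, the higher floor of 9.25 (10 members), an offset of 50 (20 members) and the mean of all probe sets, and at 2-fold. Over all genes the shares ran from 0.0433% (Hand Acu minus TBI, 2-fold) to 1.88% (Hand Acu minus Sham, quantile normalization). A count of 0 is thus near the background in each of these settings. With no floor the count was 6 for TBI minus Sham, 3 for Hand Acu minus TBI and 2 for Hand Acu minus Sham, all from members below the floor. At the lower threshold of 0.32 it was 4, 1 and 2, against 10.1%, 8.16% and 11.0% of all genes. Medians of the members moved by no more than 0.05, except that Hand Acu minus TBI was 0.043 with the higher floor, where fewer members are read. Of 63 single differences of the 21 members, 0 moved by over 0.1 with quantile normalization, centring or the offset, and 11 did with the mean of all probe sets, by up to 0.39 (Cdh2, Hand Acu minus TBI, −0.30, with a dim probe set included). Averaging all probe sets changed the sign of 8 of the 63, quantile normalization that of 2 and centring or the offset that of 0, and 0 of these were among the 8 differences of at least 0.3. No paired analysis was possible because each group is 1 array, and leaving out an array leaves no group.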
